A study of Canis lupus familiaris with 4 samples.

Results

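Of the 160 targets on a custom NanoString panel for canine skin, 5 are described here: the keratin genes *KRT1*, *KRT5* and *KRT14*, the epidermal protease gene *KLK7* and the dermal collagen gene *COL1A1*. They were found by their RefSeq transcripts, NM_001003392.1 for *KRT1*, NM_001346035.1 for *KRT5*, NM_001253741.1 for *KRT14*, NM_001197165.1 for *KLK7* and NM_001003090.1 for *COL1A1*. They were chosen by their counts in these same biopsies, in which collagen and keratin had been seen to differ widely, so every level and ratio below is a description and no test was made. Counts came from archival, formalin-fixed skin biopsies of 4 dogs. The erythema multiforme (EM) biopsy was from a spayed female Boxer aged 5 years. The cell poor vasculitis (CPV) biopsy was from a spayed female Pomeranian aged 4 years. Pyoderma case 1 was a neutered male Golden Retriever aged 7 years and pyoderma case 2 a neutered male German Shepherd aged 9 years. CPV and pyoderma served in the study as inflammatory controls that spare the basal keratinocytes. No treatment is given in the labels, and healthy skin and the lupus biopsies of the series' design were not analysed here.

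The epidermis renews itself from a basal layer. Basal keratinocytes make the filament partners keratin 5 and keratin 14, and cells that leave this layer switch to other keratins, among them keratin 1. KLK7 is a serine protease made in the upper living layers, where it helps to cut the junctions between cells that are about to be shed. *COL1A1* encodes a chain of type I collagen, the main fibre of the dermis, and is made by fibroblasts. The biopsies were cut as whole curls, so each count adds epidermis, dermis and infiltrate. In such bulk samples, fewer cells of a type and less RNA per cell cannot be told apart.

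Each biopsy yielded between 517282 and 808877 target counts, and background, set 2 SD above the mean negative control probe (8 probes), was 13.0 to 16.3 counts. All 5 genes exceeded background in all 4 biopsies. The smallest of their counts, 2934 for *KLK7* in CPV, was 193 times background. With 1 probe per gene and unknown probe efficiencies, a level of one gene cannot be set against that of another, and ratios between genes are read only for how they differ between biopsies. EM and CPV have 1 biopsy each. Intervals cover counting error only.

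Together the 5 genes took a similar share of the target counts of every biopsy, and what differed more was how it was divided. Shares are relative to the total of each biopsy and do not give levels. Their summed share of all target counts was 36.7% in EM, 32.0% in CPV, 39.0% in pyoderma case 1 and 40.7% in pyoderma case 2. Keratins, all 3 together, made up 21.5% of target counts in EM, 31.2% in CPV, 30.7% in pyoderma case 1 and 14.2% in pyoderma case 2. *COL1A1* alone took 14.1% in EM, 0.481% in CPV, 6.85% in pyoderma case 1 and 25.9% in pyoderma case 2. In pyoderma case 2 it was the most abundant of the 160 targets, and in CPV it ranked 13 of 160. Of the counts of the 5 genes, *COL1A1* was 63.6% in pyoderma case 2 and in CPV it was the second smallest, ahead of *KLK7*.

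**Figure D1:**
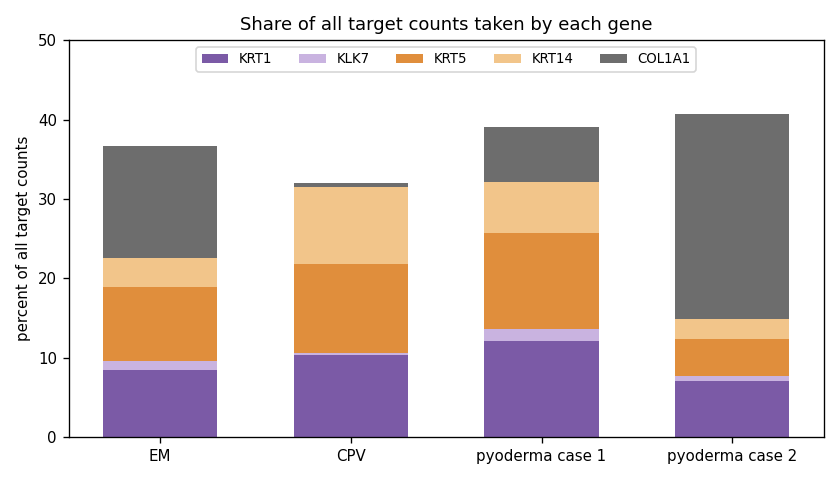
Share of all target counts in percent (vertical axis) taken by each of the 5 genes in each biopsy, as stacked bars. The bars reach between 32.0% and 40.7%, while the *COL1A1* part runs from 0.481% in CPV to 25.9% in pyoderma case 2.

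Among the basal keratins, *KRT5* took 9.42% of target counts in EM (95% Clopper-Pearson interval 9.34 to 9.49), 11.2% in CPV (11.1 to 11.3), 12.2% in pyoderma case 1 (12.1 to 12.2) and 4.68% in pyoderma case 2 (4.63 to 4.74). Pyoderma case 2 stood lowest and the other pyoderma biopsy highest, so the 2 dogs with this diagnosis bracketed EM and CPV. *KRT14* took 3.63% in EM (3.58 to 3.68), 9.68% in CPV (9.61 to 9.74), 6.44% in pyoderma case 1 (6.38 to 6.50) and 2.44% in pyoderma case 2 (2.40 to 2.48). Here CPV was highest and lay outside the pyoderma range.

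Among the suprabasal genes, *KRT1* took 8.43% of target counts in EM (8.36 to 8.50), 10.3% in CPV (10.2 to 10.4), 12.1% in pyoderma case 1 (12.1 to 12.2) and 7.11% in pyoderma case 2 (7.04 to 7.18). It had the narrowest share of the 5 genes, with a highest over lowest of 1.71-fold. *KLK7* took 1.13% in EM (1.10 to 1.15), 0.363% in CPV (0.350 to 0.376), 1.42% in pyoderma case 1 (1.39 to 1.45) and 0.588% in pyoderma case 2 (0.567 to 0.609). The share of *KLK7* was thus lowest in CPV, the biopsy with the highest share of *KRT14*.

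Part of the low keratin share of pyoderma case 2 lies in the denominator, since *COL1A1* enters the total. With *COL1A1* left out of the total, *KRT1* took 9.80% in EM, 10.3% in CPV, 13.0% in pyoderma case 1 and 9.60% in pyoderma case 2. EM, CPV and pyoderma case 2 then lay close together for *KRT1*. *KRT14* still took 4.22%, 9.72%, 6.91% and 3.29% in the same order of biopsies, and *KRT5* took 11.0%, 11.3%, 13.1% and 6.32%.

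Levels were also scaled by the geometric mean of the housekeeping genes *B2M*, *RPL13A* and *HPRT1*. *CCZ1*, the other housekeeping gene of the panel's design, was not used here, since no target was paired with it. *KRT5* then had 46366 normalized counts in EM, 100588 in CPV, 79778 in pyoderma case 1 and 25038 in pyoderma case 2, and the pyoderma mean was 52408 ± 38707 (SD, n = 2). *KRT14* had 17870 normalized counts in EM, 86770 in CPV, 42257 in pyoderma case 1 and 13027 in pyoderma case 2, with a pyoderma mean of 27642 ± 20669 (SD, n = 2). Both basal keratins were lowest in pyoderma case 2 under all 7 scalings compared. *KRT14* was highest in CPV under all 7, while *KRT5* was highest in CPV under 5 and in pyoderma case 1 under the other 2, which use the panel total with or without the 5 genes.

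*KRT1* had 41485 normalized counts in EM, 92244 in CPV, 79692 in pyoderma case 1 and 38013 in pyoderma case 2, and the pyoderma mean was 58852 ± 29472 (SD, n = 2). Its order was that of the basal keratins, and it too was highest in pyoderma case 1 in place of CPV under the same 2 scalings. *KLK7* had 5544 normalized counts in EM, 3252 in CPV, 9312 in pyoderma case 1 and 3143 in pyoderma case 2, with a pyoderma mean of 6228 ± 4362 (SD, n = 2). *KLK7* was highest in pyoderma case 1 under all 7 scalings. CPV was lowest under 3 of them and pyoderma case 2 under 4.

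*COL1A1* had 69257 normalized counts in EM, 4310 in CPV, 44948 in pyoderma case 1 and 138520 in pyoderma case 2, and the pyoderma mean was 91734 ± 66165 (SD, n = 2). The order pyoderma case 2, EM, pyoderma case 1, CPV held under all 7 scalings. On the log2 scale CPV lay below the pyoderma mean by a difference of −4.19 and EM by −0.19, where the 2 pyoderma biopsies were 1.62 apart. The difference for EM turned positive under 5 of the 6 other scalings. The pyoderma biopsies also differed by 3.19-fold for *KRT5*, 3.24-fold for *KRT14*, 2.96-fold for *KLK7* and 2.10-fold for *KRT1*. For each of the 5 genes the EM level lay between the levels of these 2 dogs.

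**Figure D2:**
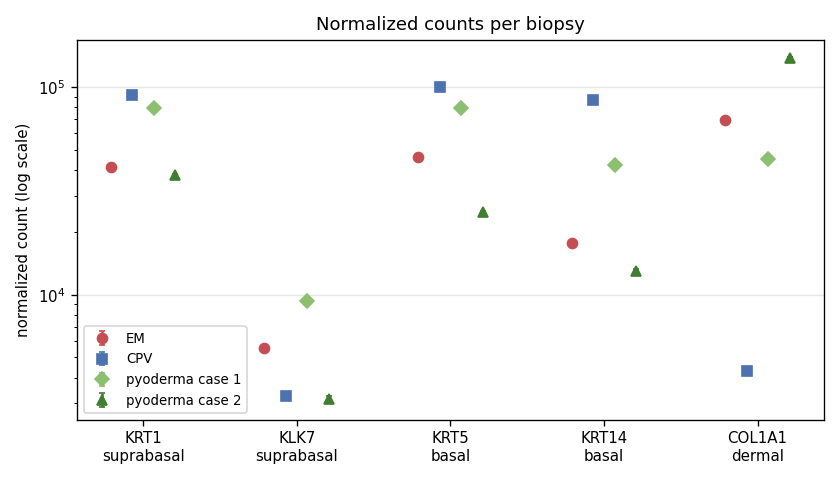
Normalized counts of the 5 genes (vertical axis, log scale), with a marker for each of the 4 biopsies and bars for the 95% Poisson interval, which are mostly smaller than the markers. CPV is highest for the 3 keratins and lowest for *COL1A1*, at 4310 normalized counts, and EM lies between the pyoderma biopsies for every gene.

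Ratios within a biopsy need no scaling. Part of their technical spread was read from the 4 brightest positive control probes, whose 6 pairwise log2 ratios had an SD of 0.042 to 0.11 over the 4 biopsies. Differences in RNA quality and in how the curls were cut are not covered by these probes. The SD of the log2 ratio was 0.36 for *KRT5* to *KRT1*, 0.48 for *KRT5* to *KRT14* and 0.62 for *KRT14* to *KRT1*. These lay above the control probes and in or below the range of the housekeeping pairs, from 0.41 for *B2M* to *HPRT1* to 0.71 for *B2M* to *RPL13A*. Pairs with *KLK7* had an SD of 0.86 with *KRT1*, 0.95 with *KRT5* and 1.40 with *KRT14*, and pairs with *COL1A1* from 2.14 with *KLK7* to 3.36 with *KRT14*.

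**Figure D3:**
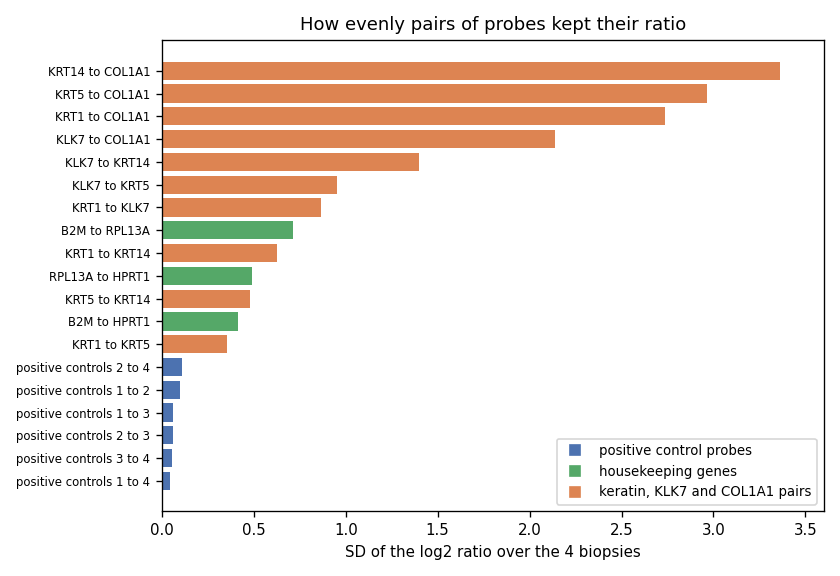
SD over the 4 biopsies of the log2 ratio between 2 probes (horizontal axis), for pairs of positive control probes, of housekeeping genes and of the 5 genes. Control pairs stay at or below 0.11, the keratin pairs run from 0.36 to 0.62, and the 4 pairs with *COL1A1* exceed all others.

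The ratio of the basal keratins was almost the same in the 2 pyoderma dogs. This was not particular to these partners. Between the same dogs *KRT5* to *KLK7* differed by 1.08-fold and *KRT14* to *KLK7* by 1.09-fold. Pairs with *KRT1* differed more, by 1.41-fold with *KLK7*, 1.52-fold with *KRT5* and 1.55-fold with *KRT14*. There were 1.89 *KRT5* counts per *KRT14* count in pyoderma case 1 (95% interval 1.86 to 1.91) and 1.92 in pyoderma case 2 (1.88 to 1.96), although the levels of both genes differed by 3.19-fold or more between these biopsies. The ratio was 2.59 in EM (2.55 to 2.64) and 1.16 in CPV (1.15 to 1.17). EM and CPV thus lay on opposite sides of pyoderma, by log2 differences of 0.45 and −0.72 from its mean of 0.93 ± 0.018 (SD, n = 2). That SD lies below the 0.042 to 0.11 of the control probe pairs, so it cannot serve as a measure of the spread between dogs.

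The suprabasal genes did not keep their ratio. There were 7.48 *KRT1* counts per *KLK7* count in EM (7.29 to 7.68), 28.4 in CPV (27.3 to 29.4), 8.56 in pyoderma case 1 (8.37 to 8.75) and 12.1 in pyoderma case 2 (11.7 to 12.6). CPV stood apart from the other 3 biopsies. *KRT5* per *KLK7* count was 8.36 in EM (8.15 to 8.58), 8.57 in pyoderma case 1 (8.38 to 8.76) and 7.97 in pyoderma case 2 (7.67 to 8.27), against 30.9 in CPV (29.8 to 32.1). The intervals of EM and pyoderma case 1 overlapped, as did those of EM and pyoderma case 2, while those of the pyoderma biopsies did not. *KRT5* and *KLK7* thus kept nearly one ratio in all biopsies but CPV.

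The low *KLK7* count of CPV enters each ratio to it. Of the 128 targets other than *KLK7* that were above background in all biopsies, 51, or 39.8%, had their highest ratio to *KLK7* in CPV. *KRT1*, *KRT5* and *KRT14* are among these 51, and *COL1A1* is not.

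Basal against suprabasal balance was taken as the mean log2 count of *KRT5* and *KRT14* minus that of *KRT1* and *KLK7*. It was 0.92 in EM, 2.43 in CPV, 1.09 in pyoderma case 1 and 0.72 in pyoderma case 2. CPV exceeded the pyoderma mean by 1.52, against a pyoderma SD of 0.26 (n = 2), and EM lay between the pyoderma biopsies. The size of the CPV difference followed the genes used. It was 2.62 for *KRT14* to *KLK7*, 1.90 for *KRT5* to *KLK7*, 1.14 for *KRT14* to *KRT1* and 0.43 for *KRT5* to *KRT1*.

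With *KRT5* and *KRT1* alone CPV no longer stood apart. *KRT5* per *KRT1* count was 1.12 in EM (1.10 to 1.13), 1.09 in CPV (1.08 to 1.10), 1.00 in pyoderma case 1 (0.991 to 1.01) and 0.659 in pyoderma case 2 (0.648 to 0.669). The biopsy that differed here was pyoderma case 2, with relatively more *KRT1*. *KRT14* per *KRT1* count was 0.431 in EM (0.424 to 0.438), 0.941 in CPV (0.932 to 0.950), 0.530 in pyoderma case 1 (0.524 to 0.537) and 0.343 in pyoderma case 2 (0.336 to 0.350).

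Epidermis against dermis was taken as the mean log2 count of the 4 epidermal genes minus that of *COL1A1*. It was −1.73 in EM, 3.22 in CPV, −0.18 in pyoderma case 1 and −3.30 in pyoderma case 2. Highest and lowest biopsy differed by 6.52, and the 2 pyoderma biopsies by 3.12. CPV lay above both pyoderma biopsies, by 4.96 over their mean of −1.74 ± 2.21 (SD, n = 2). EM differed from that mean by 0.010, but the mean falls in the gap between 2 distant values.

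Each epidermal gene gave the same order of biopsies against *COL1A1*. *KRT1* per *COL1A1* count was 0.599 in EM, 21.4 in CPV, 1.77 in pyoderma case 1 and 0.274 in pyoderma case 2. *KRT14* per *COL1A1* count was 0.258 in EM, 20.1 in CPV, 0.940 in pyoderma case 1 and 0.0940 in pyoderma case 2. *KLK7* per *COL1A1* count was 0.0801 in EM, 0.755 in CPV, 0.207 in pyoderma case 1 and 0.0227 in pyoderma case 2. CPV was highest and pyoderma case 2 lowest each time, and the difference of CPV from the pyoderma mean ran from 3.46 with *KLK7* to 6.08 with *KRT14* on the log2 scale.

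A ratio to *COL1A1* that was highest in CPV was shared by nearly the whole panel. Of 128 targets above background in all biopsies, 125, or 97.7%, had their highest ratio to *COL1A1* in CPV, immune genes included. For the 124 that are none of the 5 genes, the median difference of this log2 ratio between CPV and the pyoderma mean was 4.08. That of *KLK7* lay below this median, and those of *KRT1* (4.94), *KRT5* (5.36) and *KRT14* lay above it.

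*CXCL12*, a chemokine gene of fibroblasts and other stromal cells, was the only other measured gene of the dermal list, and its levels differed far less than those of *COL1A1*. It had 1520 normalized counts in EM, 1592 in CPV, 2066 in pyoderma case 1 and 3145 in pyoderma case 2. With *CXCL12* in place of *COL1A1*, an alternative chosen after seeing the data, the epidermis to dermis log2 ratio was 3.78 in EM, 4.66 in CPV, 4.27 in pyoderma case 1 and 2.16 in pyoderma case 2. CPV stayed highest and pyoderma case 2 lowest, but CPV exceeded the pyoderma mean by 1.45 in place of 4.96. Both dermal genes were highest in pyoderma case 2.

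**Figure D4:**
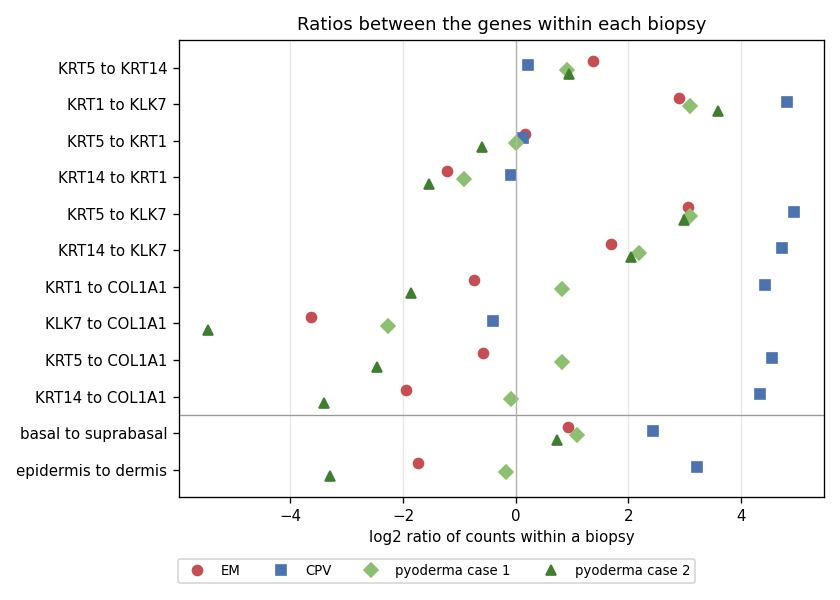
Log2 ratio of counts within a biopsy (horizontal axis) for the 10 pairs of the 5 genes and, under the line, for both composite ratios, with a marker per biopsy. CPV lies outside the 2 pyoderma biopsies in all 10 pairs, a count not compared with other pairs of targets. The pyoderma biopsies nearly coincide for *KRT5* to *KRT14* but lie far apart in the pairs with *COL1A1*.

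Over the 10 pairs of the 5 genes, which share genes and are not independent, CPV lay outside the range of the 2 pyoderma biopsies in 10 and EM in 4. How often other pairs of targets do so was not counted, so nothing is read from these numbers about the 5 genes. For the pairs with *COL1A1*, a highest ratio in CPV was shared by 97.7% of targets. The 4 pairs for EM were *KRT5* to *KRT14*, *KRT1* to *KLK7*, *KRT5* to *KRT1* and *KRT14* to *KLK7*. None of these contains *COL1A1*.

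Set against the panel, the spread of *COL1A1* was among the widest and that of *KRT1* lay near the median. The normalized counts of *COL1A1* spanned 32.1-fold over the biopsies, rank 4 of the 129 targets above background in all biopsies. *KRT14* ranked 17 with 6.66-fold, *KRT5* ranked 40 with 4.02-fold, *KLK7* ranked 53 with 2.96-fold and *KRT1* ranked 77 with 2.43-fold. The median over the 129 targets was 2.68-fold. Past 4-fold were 3 of the 5 genes and 31.0% of the 129 targets, and nothing is read from this, since the spread chose the genes. *KRT5* lies at the limit itself, and with the counts as deposited 2 of the 5 genes passed it. With the panel total as scaling *KRT14* also fell just below the limit, to 3.97-fold, and 1 of the 5 genes passed.

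**Figure D5:**
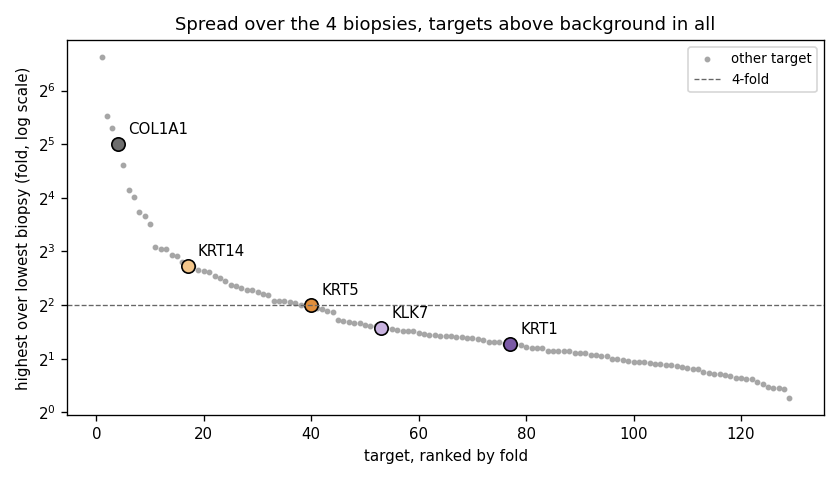
Highest over lowest biopsy in normalized counts (vertical axis, log scale) for the 129 targets above background in all 4 biopsies, ranked by that fold, with the 5 genes marked. *COL1A1* is at rank 4 with 32.1-fold and *KRT1* at rank 77 with 2.43-fold, on either side of the dashed line at 4-fold.

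Likeness between targets was measured by the SD over the 4 biopsies of their log2 ratio, where a small SD means that they kept the same proportion. For *KRT5* the closest of 124 targets was XM_005630836.1, with an SD of 0.17, and the next were XM_005630828.1 (0.29) and XM_014106918.1 (0.31). XM_005630836.1 was counted 13037 times in EM, 20028 times in CPV, 14286 times in pyoderma case 1 and 4280 times in pyoderma case 2. No symbol was paired with these transcripts. The median SD of the 124 targets to *KRT5* was 1.11.

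For *KRT14* the closest were XM_003640114.2 (SD 0.27), XM_537722.6 (0.39) and XM_844629.2 (0.40). Of these XM_537722.6 had ample counts, with 1758 in EM, 9965 in CPV, 3683 in pyoderma case 1 and 1837 in pyoderma case 2, and like *KRT14* was highest in CPV. The other 2 had at most 74 counts in a biopsy. For *KRT1* the closest were XM_543206.4 (SD 0.17) and XM_005618038.3 (0.26), both with at most 174 counts in a biopsy, and NM_001013425.1 (0.28).

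For *KLK7* the closest target was *CCL20* with an SD of 0.29, a chemokine gene that keratinocytes express. *CCL20* was counted 213 times in EM, 128 times in CPV, 351 times in pyoderma case 1 and 155 times in pyoderma case 2, which is also how the *KLK7* counts ordered the biopsies. The next were XM_014109772.2 (0.34) and XM_536502.4 (0.39). For *COL1A1* the closest were XM_005615400.3, with an SD of 1.07, *CCL21* (1.18), a chemokine gene of lymphatic vessels, and XM_005638746.1 (1.28). The median SD of the 124 targets was 2.17 to *COL1A1* and 0.94 to *KLK7*. Such an SD also holds the gene's own spread, so the SDs to *COL1A1* cannot be set against those to the other genes. XM_005615400.3 had 23 counts in CPV, where background was 15.2.

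Few other markers of skin layers could be read. Of 7 basal genes listed, *KRT5* and *KRT14* were measured under a paired symbol, of 14 suprabasal genes *KRT1* and *KLK7*, and of 19 dermal genes *COL1A1* and *CXCL12*. Of 19 other epidermal products 3 were measured. *CCL27*, a chemokine gene of keratinocytes that draws skin-homing T cells, had 51.7 normalized counts in EM, 16.6 in CPV, 46.0 in pyoderma case 1 and 18.6 in pyoderma case 2, with its CPV count within background. *CCL28*, an epithelial chemokine gene, had 38.6 in EM, 75.4 in CPV, 199 in pyoderma case 1 and 158 in pyoderma case 2. *CCL20* and *CCL27* were lowest in CPV and *CCL28* was not, so the 3 did not follow the keratins, which were highest there under housekeeping scaling.

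Markers of other cell types also differed between the biopsies, and their part in the results was not tested. The 2 measured of 8 macrophage and dendritic cell genes, *CD163* and *CD86*, summed to 1045 normalized counts in EM, 2636 in CPV, 1273 in pyoderma case 1 and 1604 in pyoderma case 2. *KIT* and *MS4A2*, 2 of 3 mast cell genes, summed to 670.1 in EM, 200.6 in CPV, 1033 in pyoderma case 1 and 460.9 in pyoderma case 2. *CEACAM1*, 1 of 4 neutrophil genes and also made by epithelia, had 315 in EM, 2083 in CPV, 837 in pyoderma case 1 and 1005 in pyoderma case 2. *DCT*, *MC1R* and *TYR*, 3 of 8 melanocyte genes, summed to 408 in EM and to between 83.7 and 133 in the other biopsies. Under housekeeping scaling CPV, lowest for collagen, was thus also lowest for the mast cell genes and highest for the macrophage genes and *CEACAM1*. These marker levels were not compared under the other scalings, so their order may depend on the scaling. The 2 measured of 8 T and cytotoxic cell genes summed to between 79.7 and 182, *MS4A1*, 1 of 3 B cell genes, lay between 54.8 and 122, and no endothelial gene was paired with a target.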

How the data were processed

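RNA from archival skin biopsies of 4 dogs was hybridized by the authors to a custom NanoString panel and read on a Sprint instrument. The deposited values are raw counts per probe, without scaling, for 160 targets, 6 positive and 8 negative control probes. The positive control probes (geometric mean) spanned 1.79-fold over the biopsies. Targets are listed by RefSeq transcript, and 72 were paired with a symbol, versions ignored, from RefSeq's genes for UU_Cfam_GSD_1.0, used for names only.

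Groups came from the sample titles. The 5 genes, the marker lists and the ratios were chosen with earlier results of these data known, so no test was made. Normalized counts are counts divided by a housekeeping factor, which is the geometric mean of *HPRT1*, *B2M* and *RPL13A* relative to its mean over the biopsies. Intervals at 95% are exact Poisson for counts, Clopper-Pearson for shares and conditional binomial for ratios of 2 counts. No pseudocount was used. Genes named are the 5, the housekeeping genes, the 3 targets with the smallest SD of the log2 ratio to each, and all measured genes of the marker lists.

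The 6 other scalings were edgeR's TMM (edgeR 4.0.16, R 4.3.3), the median of ratios, the panel total with and without the 5 genes, the counts as deposited and the positive control probes. Subtraction of the mean negative control count, a minimum of 100 counts, single gene pairs, each pyoderma biopsy left out and, added after seeing the data, *CXCL12* as the dermal gene were also tried. Calculations ran in Python 3.11.15 with scipy 1.17.1, pandas 2.3.3 and numpy 2.4.6, and plots in matplotlib 3.10.9. The ratios of 2 counts with their intervals and the calls past 4-fold were tested on simulated data, and the other calculations were not.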

Additional observations from a re-analysis of the deposited data

How the results depend on the processing

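The CPV minus pyoderma difference of the basal to suprabasal log2 ratio, 1.52, was 0.43 with *KRT5* to *KRT1*, 1.14 with *KRT14* to *KRT1*, 1.90 with *KRT5* to *KLK7* and 2.62 with *KRT14* to *KLK7*. The EM minus CPV difference, −1.51, was −1.13, −1.89 and −3.05 with the last 3 pairs and changed sign to 0.036 with *KRT5* to *KRT1*. The EM minus pyoderma difference, 0.016, was 0.46 with *KRT5* to *KRT1* and −0.43 with *KRT14* to *KLK7*. For epidermis to dermis, 23 of 25 alternative values moved by less than the pyoderma SD. The exceptions had *CXCL12* as the dermal gene, with 1.45 for CPV minus pyoderma and −0.88 for EM minus CPV. Leaving out 1 of only 2 pyoderma biopsies always moves their mean by less than the pyoderma SD. Those alternatives could therefore not count as moved. The CPV minus pyoderma difference was 6.52 without pyoderma case 1 and 3.40 without case 2, and EM minus pyoderma was 1.57 and −1.55, so the sign for EM follows which pyoderma dog is used, and it also changed under 3 choices of epidermal genes. Among the 125 alternative values for single gene levels, those with a pyoderma biopsy left out again could not move by more than the pyoderma SD. Of the 125, 122 moved by less than it, but 12 changed sign. Of these, 10 were small EM minus pyoderma differences, 6 of them for *COL1A1*. The others were CPV minus pyoderma: *KRT1*, 0.74 with housekeeping scaling, was −0.031 with the panel total without the 5 genes, and *KLK7*, −0.73, was 0.049 without pyoderma case 1. With at least 100 counts in all biopsies, 15 of 66 targets (22.7%) passed 4-fold in place of 40 of 129 (31.0%), so the share fell as well as the number. Of the 3 targets closest to *KRT1*, *KRT14* and *COL1A1*, 1 each was shared under that minimum. The targets no longer shared had fewer than 100 counts in some biopsy, so the minimum itself removed them. The cause of the other changes was not tested. No paired analysis was possible because each of the 4 biopsies came from a different dog, and only pyoderma has more than 1 dog. Depth limits none of the 5 genes, but the closest targets of *KRT1* and *KRT14* have few counts. That of *COL1A1* has few in CPV, with 23.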

Other observations

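The most abundant target without a paired symbol, NM_001013425.1, took 19.5% of target counts in EM, 25.3% in CPV, 19.2% in pyoderma case 1 and 14.3% in pyoderma case 2. Its log2 ratio to *KRT1* was 1.21 in EM, 1.30 in CPV, 0.66 in pyoderma case 1 and 1.01 in pyoderma case 2, so it kept close to *KRT1*, while its log2 ratio to *COL1A1* ran from −0.85 in pyoderma case 2 to 5.72 in CPV. Another abundant target without a symbol, XM_003434905.4, took 2.27% in EM, 8.71% in CPV, 10.2% in pyoderma case 1 and 5.10% in pyoderma case 2. It was lowest in EM, where its log2 ratio to *KRT5* was −2.05, against −0.36 in CPV, −0.26 in pyoderma case 1 and 0.12 in pyoderma case 2. EM, which lay between the pyoderma biopsies for each of the 5 genes described, lay outside them for this target, which was singled out after its values were seen.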
